A study of Mus musculus with 20 samples.

Results

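Of 8084 mouse transcripts measured by RNA-seq across a polysome gradient, 35 stood well on the heavy side with a control siRNA and kept nearly the same balance between heavy and light fractions with an siRNA against Rpl10a. They were chosen on log2(RPM + 1) values averaged over 2 replicate libraries. A member had heavy minus light at or above 1.2 with control siRNA. Its polysome shift (the change on Rpl10a siRNA in the heavy pool minus the change in the light pool) lay within 0.25 of 0, and its change in the heavy pool was under 0.5 in size. Its log2 ratio of mean footprint density on RPL10A-containing ribosomes over total ribosomes was under 0.6 in size. These RNA-seq and RPL10A values therefore describe the members and were not tested.

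The cells were E14 mouse embryonic stem cells, a pluripotent line grown with LIF. For RNA-seq, wild-type cells received a universal negative control siRNA or 1 siRNA product against Rpl10a, and gradient fractions were combined into a heavy pool (mRNAs with at least 4 ribosomes) and a light pool (free ribonucleoproteins, subunits, monosomes and the smallest polysomes, with 2 or 3 ribosomes), with 2 libraries for each pool and siRNA. In Ribo-Seq, which reads the stretches of mRNA that ribosomes cover, 3 lines had a tag on 1 endogenous allele, namely 3xFLAG-Rpl10a, Rps25-3xFLAG and RPL22-3xHA. For every line, 2 libraries of ribosomes captured through the tag were set beside 2 libraries of total ribosomes, and all cells had 100 µg/ml cycloheximide for 1 min before harvest. An anti-HA antibody is listed for the RPL22-line libraries titled total as well as for the captured ones, so what those totals hold is less sure. Whether replicates came from separate cultures is not stated, and p-values then measure only the spread between these libraries, which may be technical.

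The number of ribosomes on an mRNA depends on how often translation starts, how fast ribosomes move and how long the coding sequence is, so a heavy position marks an mRNA that carries many ribosomes rather than one that is abundant. RPL10A is a protein of the large ribosomal subunit and forms part of the mobile L1 stalk beside the exit site for spent tRNA. RPS25, of the small subunit, is known for its part in translation from internal ribosome entry sites, and RPL22 is a further large-subunit protein.

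Transcripts carry UCSC identifiers. None of the 8084 matched the reference tables used here (0 matched), so gene names, sequences, functions and the Rpl10a mRNA itself, and with it the strength of the knockdown, were not analysed here. Column sums ran from 1082511 to 1201737 RPKM in Ribo-Seq and from 943664 to 1067209 in RNA-seq. Read depth is unknown, as no counts were used, so no counting interval is given. All 35 members were present in the RPL10A, RPS25 and RPL22 tables, and no filter on low values removed any.

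Few transcripts of the heavy side kept their distribution. Of the 560 with heavy minus light at or above 1.2 under control siRNA, 556 had a shift below 0, that is, toward the light pool. In 411 the shift was −0.5 or lower, in 105 it lay between −0.5 and −0.25, and in 44 (7.86%) it lay within 0.25 of 0. No heavy-side transcript had a shift above 0.25. Among all 8084 transcripts, 34.7% lay within 0.25 of 0. The limit on the heavy change removed none of the 44, and the limit on the RPL10A ratio removed 9, leaving 35, or 6.25% of the heavy side. The shift and the control distribution share the control libraries, so their relation is a description and not a result.

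**Figure D1:**
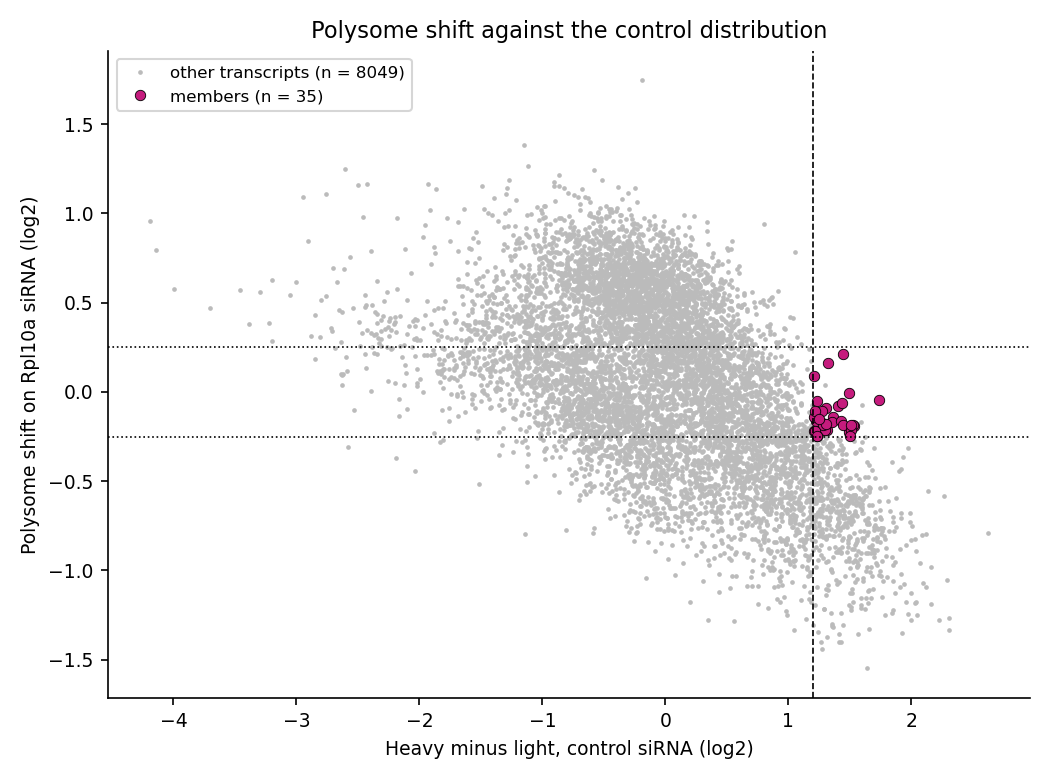
Polysome shift on Rpl10a siRNA (log2) against heavy minus light with control siRNA (log2), 1 point per transcript, with the 35 members in pink, the 8049 others in grey, a dashed line at 1.2 and dotted lines at −0.25 and 0.25. Members fill the upper edge of the cloud to the right of the dashed line, where most transcripts lie below −0.5.

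By the rule, members stayed on the heavy side under both siRNAs. Their median heavy-minus-light value was 1.31 with control siRNA, a 2.47-fold excess in the heavy pool, and 1.18 with Rpl10a siRNA, a 2.27-fold excess. The range was 1.21 to 1.74 with control siRNA and 0.99 to 1.69 with Rpl10a siRNA. In the 411 heavy-side transcripts that shifted by −0.5 or lower, the median went from 1.499 (2.83-fold) to 0.73 (1.66-fold). Members began lower on the heavy side than the shifting transcripts and ended higher. Limits on the shift define both lists, and the shift shares the control libraries with the start. The lower start and the higher end therefore describe the lists and are not results. Both heavy libraries exceeded both light libraries in 35 of 35 members with control siRNA and in 35 of 35 with Rpl10a siRNA. Over all transcripts those shares were 38.9% and 44.4%, and the opposite order was found in 41.5% and 29.9%. The rule used both contrasts, so nothing is read from these counts.

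The member with the highest heavy signal was uc008jaw.2. With control siRNA its libraries stood at 849 and 989 in the light pool and at 2359 and 2182 in the heavy pool (deposited RPM-scaled signal). With Rpl10a siRNA they stood at 1046 and 982 in the light pool and at 2243 and 2473 in the heavy pool. Light and heavy libraries lay far apart under each siRNA, while the siRNAs overlapped within each pool. The shift was −0.09 (SE 0.17, 95% interval −0.49 to 0.31, limma). Without single libraries it ran from −0.20 to 0.018, the ends being without the second and the first control light library.

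The next highest, uc009cfj.2, stood at 630 and 677 (light) and 1708 and 1333 (heavy) with control siRNA. With Rpl10a siRNA it stood at 774 and 773 (light) and 1778 and 2034 (heavy). Here both pools were higher with Rpl10a siRNA in every library, by 0.24 in the light and 0.33 in the heavy pool on the log2 scale, so its balance moved little while its signal in both pools was higher. Its shift of 0.09 became −0.021 with library medians aligned and 0.143 with library totals equalised. When replicate 2 of the control heavy pool was left out it was −0.090, and without replicate 1 of that pool 0.268. The latter value lies above the limit of the rule on the shift. Without replicate 2 of the Rpl10a-siRNA heavy pool the shift was −0.0080, and without replicate 1 of that pool 0.186. This transcript was the member nearest to the lower limit of heavy minus light, at 1.21.

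Not all members moved upward in both pools. In uc007lii.1 the light libraries went from 49.2 and 53.5 to 44.2 and 46.3, and the heavy libraries from 138 and 144 to 109 and 110. All 4 Rpl10a-siRNA libraries of this transcript lay below their control counterparts, with changes of −0.18 in the light and −0.36 in the heavy pool. Across the members, the heavy change ran from −0.46 to 0.38 (median −0.11, 14 above 0 and 21 below) and the light change from −0.31 to 0.49 (median 0.08, 25 above 0 and 10 below). In the heavy pool the siRNAs did not overlap in 5 members that were higher and 7 that were lower with Rpl10a siRNA, and 23 overlapped. Over all transcripts 38.1% were higher and 36% lower without overlap. In the light pool 15 members were higher and 6 lower without overlap, against 32.5% and 29% of all transcripts. The rule limited these changes, so the counts only describe how the members differ among themselves.

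**Figure D2:**
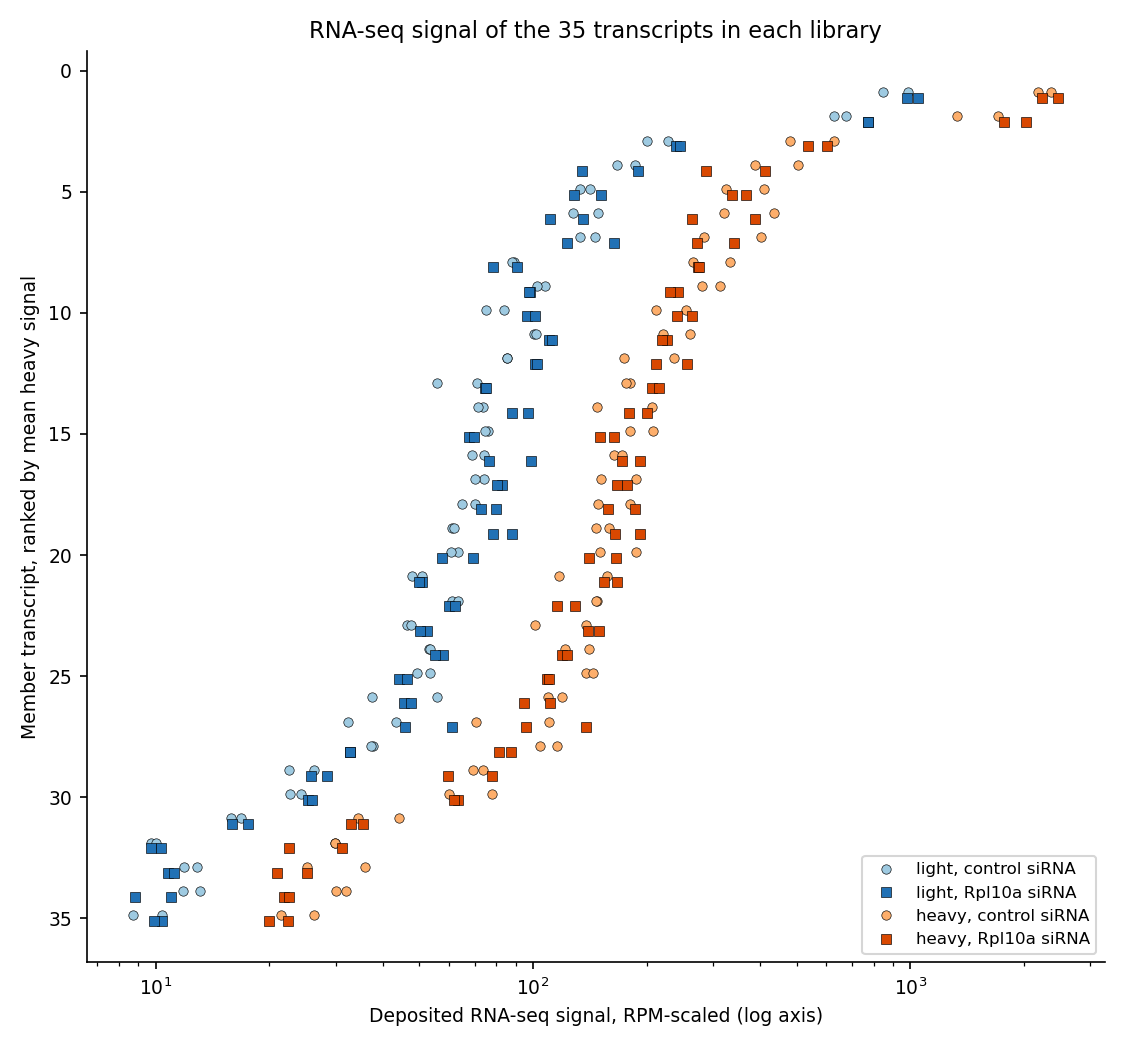
Deposited RNA-seq signal of the 35 members in each of the 8 libraries (log axis), ranked by mean heavy signal, with circles for control siRNA, squares for Rpl10a siRNA, blue for light and orange for heavy pools. In each row the orange points lie to the right of the blue ones, and circles and squares of a colour lie close together.

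Within the allowed band the shifts were not centred on 0. They ran from −0.25 to 0.21 with a median of −0.17, and 32 of 35 lay below 0. The 3 above 0, named after their values were seen, were uc007ekp.1 (0.21), uc008eop.2 (0.16) and uc009cfj.2 (0.09). Across the whole table the shift had a median of 0.09, and 32 of 35 members lay below it. On the heavy side 556 of 560 transcripts had a shift below 0, with a median of −0.68, so the lean was shared there. Aligning library medians moved the median of all transcripts to −0.022 and that of the members to −0.28, and 32 of 35 members again lay below the median of all. At the edges of the rule, the member closest to the limit on the shift had a size of 0.248 and the nearest transcript outside 0.254. For heavy minus light, the values were 1.207 inside and 1.193 outside. For the RPL10A ratio, they were 0.591 inside and 0.603 outside.

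The replicates left each shift loosely known. The SE of a member's shift in a limma fit of all 8 RNA-seq libraries had a median of 0.205 (range 0.153 to 0.376), close to the width allowed by the rule. The 95% interval reached below −0.5 in 29 of 35 members, and lay within 0.5 of 0 on both sides in 3. With a replicate block these counts were 24 and 9, and the median SE was 0.178. For most members a shift of −0.5, the mildest among the 411 shifting transcripts, is therefore inside the interval.

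**Figure D3:**
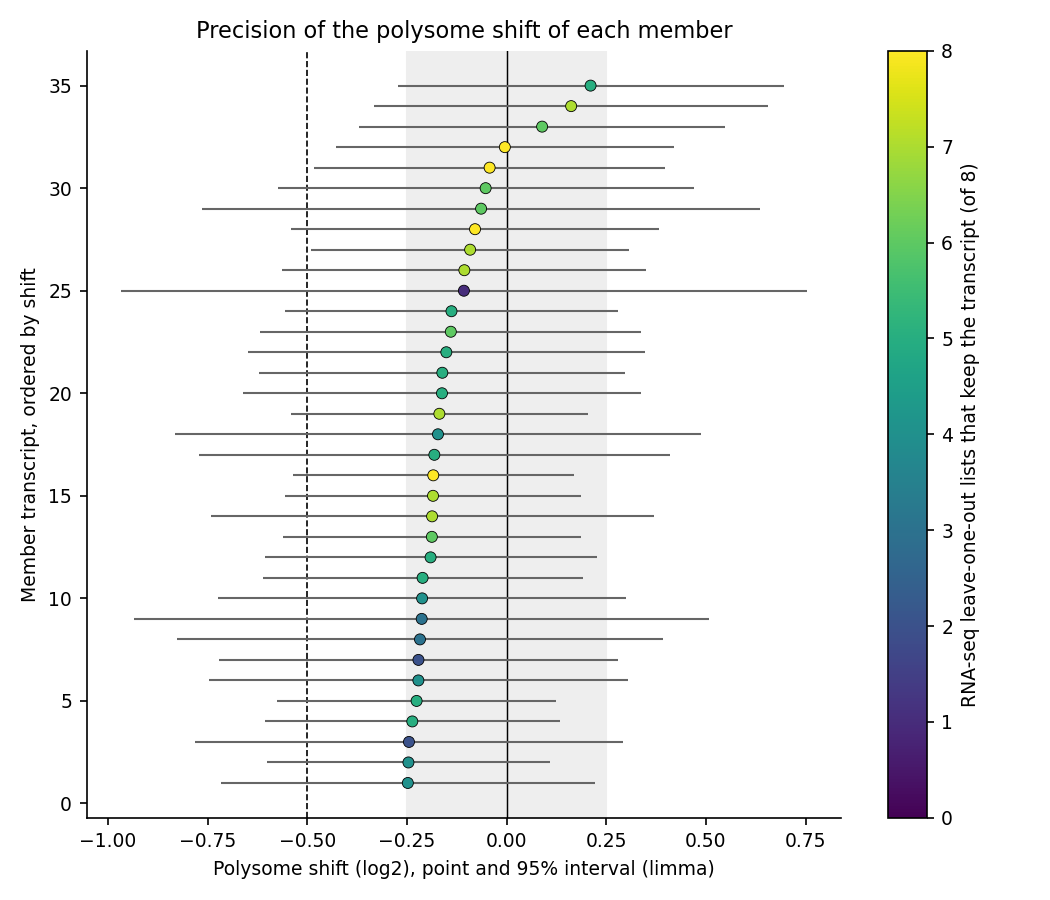
Polysome shift of each member (log2) with its 95% interval from limma, ordered by shift, with the band of the rule in grey, a dashed line at −0.5, and colour for how many of the 8 lists made without 1 RNA-seq library keep the transcript. Intervals of 29 members cross the dashed line.

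The members' replicates were uneven in some of the groups the rule used. In the heavy pool with control siRNA, replicate 1 exceeded replicate 2 in 31 of 35 members, with a median difference of 0.28 (log2). Among all 560 heavy-side transcripts this was so in 247, with a median of −0.04, and among all transcripts in 50.5%. In the other 3 RNA-seq groups replicate 1 was the higher one in 16 to 18 of the 35 members. For the heavy pool with Rpl10a siRNA this was 18 of 35 (median 0.027), where the heavy side had 119 of 560 (median −0.16). In the RPL10A capture, replicate 1 was higher in 27 members (median 0.20) and in 343 of the 560 heavy-side transcripts (median 0.087). The members thus differ from the heavy side in how both pairs of heavy libraries compare, and the part of this in their selection was not tested.

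**Figure D4:**
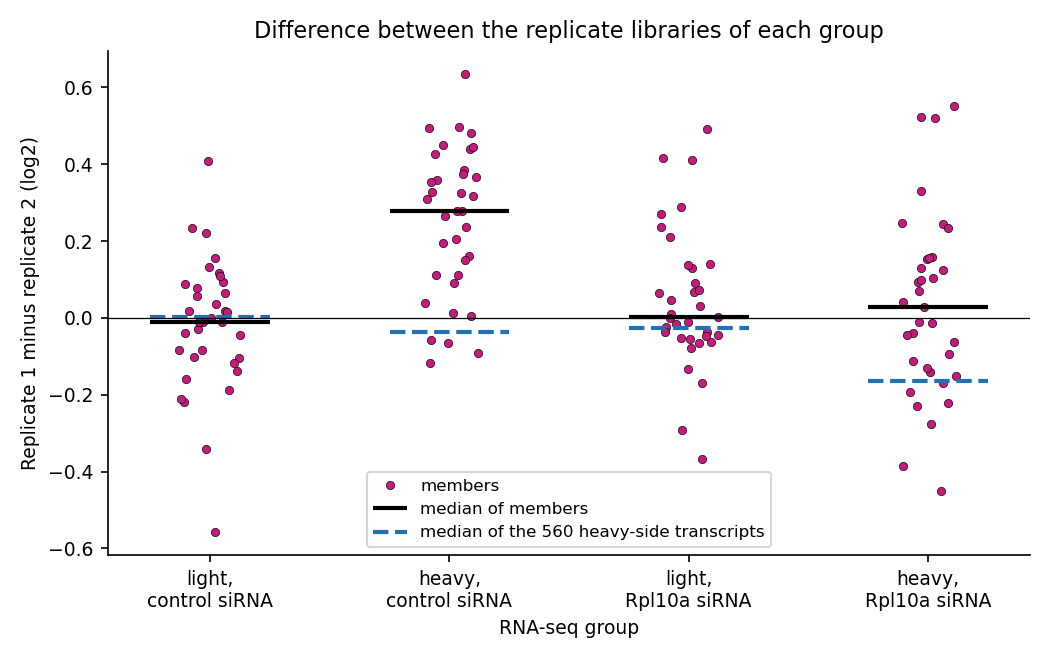
Replicate 1 minus replicate 2 (log2) of each member in the 4 RNA-seq groups, with the median of the members as a solid line and the median of the 560 heavy-side transcripts as a dashed line. The members' median is 0.28 in the heavy pool with control siRNA and near 0 in the other groups.

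Libraries of the same replicate number were next joined across groups, although the labels do not link them. With the replicate 1 libraries alone, 35 of 35 members had a shift below 0, with a median of −0.30 and a range of −0.49 to −0.04. With the replicate 2 libraries alone, 19 of 35 did, with a median of −0.016 and a range of −0.32 to 0.54. A shift within 0.25 of 0 was found in 15 members by replicate 1 and in 27 by replicate 2, and in 8 by both. Heavy minus light with control siRNA reached 1.2 in 35 members by replicate 1 and in 19 by replicate 2. So the heavy position of 16 members at this threshold, and the small shift of most, appear only in the average or in 1 of the replicates.

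The list was also chosen on 1 set of replicates and read in the other, as a description. Replicate 1 libraries chose 30 transcripts. In replicate 2, 11 of them (36.7%) had a shift within 0.25 of 0, against 21.1% of the 579 transcripts on the heavy side by replicate 1 and 35.3% of all transcripts. Replicate 2 libraries chose 41 transcripts. In replicate 1, 6 of them (14.6%) had a shift within 0.25 of 0, against 4.29% of the 583 on the heavy side by replicate 2 and 32.5% of all transcripts. The share was above that of the heavy side both ways, which was not tested. Against all transcripts the share was close in the first case and lower in the second. How far the small shift carries over from 1 set of replicates to the other was not tested. The direction differed between the cases. The 30 chosen on replicate 1 had a median shift of 0.17 in replicate 2, with 13 below 0, while 514 of the 579 heavy-side transcripts were below 0 there, and 12 of the 30 still had heavy minus light at or above 1.2. The 41 chosen on replicate 2 had a median of −0.46 in replicate 1, with 41 below 0, as did 581 of the 583 on the heavy side, and all 41 still reached 1.2.

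The rule in full was met by each replicate set alone in 5 transcripts, and all 5 were members: uc007kxk.1, uc007lii.1, uc007mua.2, uc008yro.1 and uc012fsr.1 (named after their values were seen). The shifts of uc007mua.2 were −0.17 and −0.17 by replicate 1 and replicate 2, and those of uc008yro.1 were −0.20 and −0.17. In uc007lii.1 they were −0.19 and −0.18, and in uc012fsr.1 −0.24 and −0.21. These 4 sit on the light side of 0 in both replicates. In uc007kxk.1 the replicates gave −0.22 and 0.21, so its averaged shift of 0.00 joins opposite values. Leaving out each of the 8 RNA-seq and 4 RPL10A-line libraries in turn gave 25 to 43 transcripts. The new list shared 18 transcripts with the 35 without the first control heavy library and 12 without the second, the lowest counts of the 12 lists. Without the first heavy library with Rpl10a siRNA it shared 21, and without any other RNA-seq library 22 to 29. Without a library of the RPL10A line, 30 to 34 were shared. Through all 12 lists 3 members remained: uc007kxk.1, uc007lii.1 and uc009okg.1. The last of these had the highest heavy-minus-light value of the members, 1.74 with control and 1.69 with Rpl10a siRNA, from heavy libraries at 333 and 265 with control and 274 and 276 with Rpl10a siRNA. Its light libraries stood at 89.0 and 87.9, then 90.8 and 78.3.

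Footprint density, which is scaled by transcript length, is a measure that the rule did not use as a level. In the total libraries of the RPS25 line the members' median was 88.6 RPKM (range 8.30 to 1658), against 26.0 over the 7704 transcripts of the RNA-seq table measured there. In the RPL22 line it was 88.3 RPKM (range 12.2 to 3230), against 27.4 over 7489. In each of these lines 31 of 35 members lay above the median of all transcripts. The transcripts that shifted had medians of 105 and 104 RPKM in the same lines, so a high density was shared with the rest of the heavy side. On the light side, 105 transcripts with heavy minus light at or below −1.2 that met the other limits had medians of 27.6 and 25.6 RPKM over the 99 and 96 measured, close to all transcripts. The densities were not tested between these lists. The mean RNA-seq signal over the 8 libraries had a median of 120 in the members and 129 in the shifted transcripts. Over all 8084 transcripts that median was 48.0, and 28 of 35 members lay above it. The part of RNA level in the densities was not tested.

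In the RPL10A capture, whose ratio the rule bounded, members leaned below the total: 23 of 35 ratios were below 0 and the median was −0.18. By the first captured library the median was −0.062 and by the second −0.24. Captured and total libraries did not overlap in 14 members that were lower and 5 that were higher. Among all transcripts there, 28.7% were lower and 28% higher without overlap. The rule allowed both signs, but as it used this contrast the lean is given as a description.

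The RPS25 capture comes from libraries that the rule did not use, although its ratios went with the bounded RPL10A ratios (Pearson r = 0.53 over the RNA-seq table). No member was called in it. Of 8779 transcripts 4 (0.0456%) passed an adjusted p below 0.05 in limma, 0.0342% higher and 0.0114% lower, and 0 of 35 members did. At an unadjusted p below 0.05, 10 members stood out, or 28.6% against 20.9% of all transcripts. Of these 7 were lower and 3 higher than total, where 9.75% and 11.1% of all transcripts were. The count did not stand above the background throughout: it was 5 (14.3%, against 19.0% of all) without a variance trend and 6 (17.1%, against 19.2%) with a replicate block. With library medians aligned, 12 members were lower and 0 higher, against 12.4% and 8.66% of all. Without the first or second total library the count was 2 or 1 (5.71% or 2.86%, against 7.16% or 5.33% of all). Without the first or second captured library it was 12 or 13 (34.3% or 37.1%, against 30.8% or 35.5%). The median log2 ratio of the members was −0.15, and 23 of 35 were below 0. Over the RNA-seq table the median was 0.01 with 49.1% below 0, and over the shifted transcripts it was −0.04 with 57.2% below 0. The members' median was −0.19 by the first captured library and −0.09 by the second, each against the mean of the totals.

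Both captured libraries lay below both totals in 19 members (54.3%) and above them in 5 (14.3%). Among all 8779 transcripts, 25.9% lay below and 27.9% above, and of the shifted transcripts 32.2% lay below and 22.4% above. Among the 371 shifted transcripts that also met the limit on the RPL10A ratio, 31.3% lay below and 20.8% above. These counts stayed at 19 and 5 with library totals equalised or medians aligned. The members' SE was also smaller than usual, with a median of 0.123 against 0.176 over all transcripts, and their levels were higher. The part of level in the count was not tested. RPL10A and RPS25 ratios of the members went together, with Pearson r = 0.75 (Spearman rho 0.77) over 35 transcripts and the same sign in 27. This was shared with the shifted transcripts, with Pearson r = 0.63 and the same sign in 298 of 407. Over the RNA-seq table the sign was the same in 5420 of 7704. These are descriptions across transcripts, which share the libraries of each line.

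The members farthest below total in the RPS25 capture, among the 14 that were at or above the members' median level without overlap, were uc007whj.2 and uc009fxp.1. Total libraries of uc007whj.2 stood at 358 and 360 RPKM and captured ones at 228 and 288 RPKM, so the captured values lay lower and farther apart. Its log2 ratio was −0.48 (SE 0.13, 95% interval −0.79 to −0.18, limma adjusted p = 0.133). For uc009fxp.1 the totals were 279 and 283 RPKM and the captured libraries 198 and 240 RPKM, with a log2 ratio of −0.37 (SE 0.12, limma adjusted p = 0.169). Both also had low RPL10A ratios, −0.54 and −0.59, close to the limit of the rule. The 1 eligible member above total was uc008urj.2, with 146 and 149 RPKM in total and 175 and 183 RPKM in captured libraries (log2 ratio 0.27, SE 0.09, limma adjusted p = 0.188). None of these 3 differences passed the threshold.

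In the RPL22 capture, whose libraries the rule did not use either, 0 of 8588 transcripts (0%) passed an adjusted p below 0.05 in limma, and so 0 of 35 members. At an unadjusted p below 0.05, 8 members stood out, or 22.9% against 20.2% of all transcripts. Of these 6 were higher and 2 lower than total, where 8.87% and 11.3% of all transcripts were. With library totals 2 were higher and 7 lower, against 4.22% and 22.3% of all, and with library medians aligned 7 were higher and 0 lower, against 10.9% and 8.69%. Here too the count fell under the background in places: it was 5 (14.3%, against 18.6% of all) without a variance trend, and 9 (25.7%, against 26.6%) with a replicate block. Without the first or second total library it was 1 (2.86%, against 5.45% or 11.1%). Without the first or second captured library it was 2 or 4 (5.71% or 11.4%, against 9.57% or 20.2%). The members' median log2 ratio was 0.07, with 20 of 35 above 0. Over the RNA-seq table the median was −0.04 with 43.5% above 0, and over the shifted transcripts it was 0.03 with 55.9% above 0. Scaling set the sign: with library totals equalised the members' median was −0.016, 19 of 35 were below 0, and the median of all 8588 transcripts moved from −0.034 to −0.12. Relative to the median of all transcripts, 21 of 35 members were above it under either scaling. Captured libraries lay above both totals in 10 members and below both in 8, against 21.5% and 31.4% of all transcripts. With library totals these counts became 8 and 13, against 12.2% and 46.7%. With library medians aligned they were 14 and 8, against 25.5% and 27.5%. The share above was 31.9% and the share below 19.1% among the shifted transcripts, near the members' 28.6% and 22.9%.

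The members highest over total in the RPL22 capture, among the 8 at or above the members' median level without overlap, were uc007lii.1 and uc009snd.2. For uc007lii.1 the totals were 86.5 and 90.7 RPKM and the captured libraries 107 and 102 RPKM, a log2 ratio of 0.23 (SE 0.09, limma adjusted p = 0.189). In uc009snd.2, totals of 87.3 and 87.5 RPKM stood beside captured values of 100.5 and 98.3 RPKM, a log2 ratio of 0.18 (SE 0.09, limma adjusted p = 0.270). In both transcripts the groups were separate but the difference was small. The lowest were uc012bsw.2, with totals of 239 and 230 RPKM and captured libraries of 211 and 212 RPKM (log2 ratio −0.15, SE 0.08, limma adjusted p = 0.330), and uc009fxp.1 (log2 ratio −0.13, SE 0.08, limma adjusted p = 0.402). The latter was thus below total in all 3 captures, and in none of the 2 tested ones past the threshold. With a replicate block, 1 member was called in this capture, uc012fsr.1, named after its values were seen, with totals of 59.0 and 60.2 RPKM, captured values of 88.7 and 68.3 RPKM and a log2 ratio of 0.38 (limma adjusted p = 0.0345). That block called 692 of all 8588 transcripts.

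**Figure D5:**
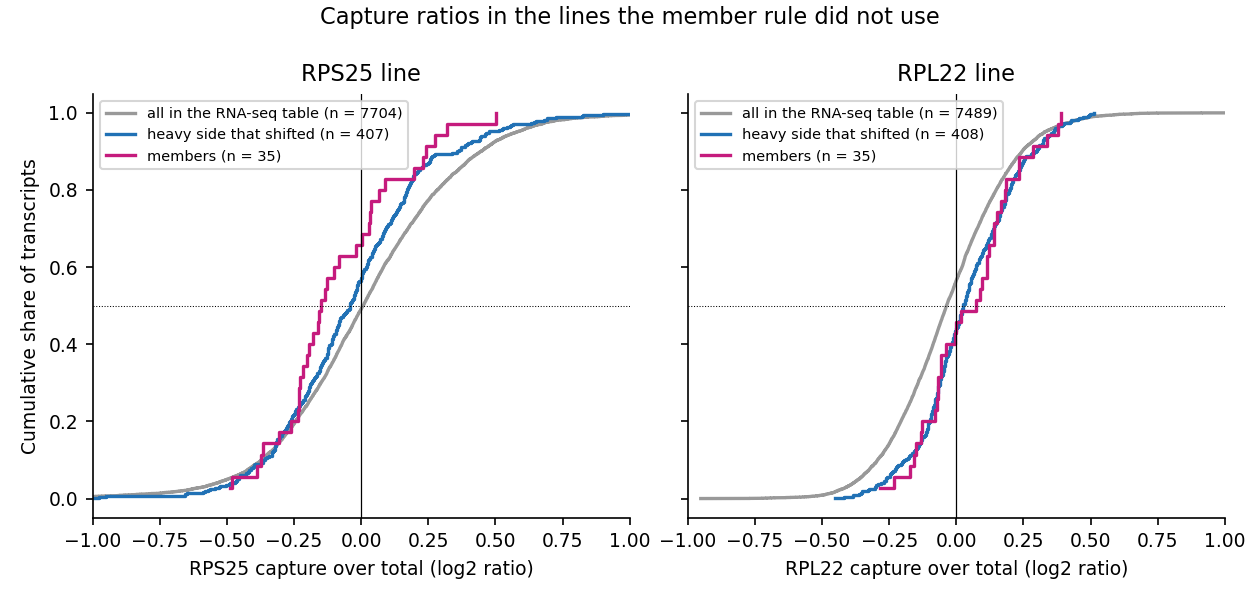
Cumulative share of transcripts against the log2 ratio of captured over total footprint density, in the RPS25 line (left) and the RPL22 line (right), for the members (pink), the heavy-side transcripts that shifted (blue) and all transcripts of the RNA-seq table (grey), with the axis limited to ratios between −1 and 1. The members' curve crosses the middle of the share axis at −0.15 in the RPS25 line and at 0.07 in the RPL22 line.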

How the data were processed

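The authors deposited RPKM values (read numbers relative to both length and sequencing depth) per transcript for each Ribo-Seq library, per the file headers. The deposited RNA-seq values, called RPM in the headers, differ in their sums, up to 1067209, and were treated as an RPM-scaled signal. Cutadapt, Bowtie2 and mm10 stand in the submitters' processing notes of every library, and STAR in those of the RNA-seq and RPL22-line libraries. Versions, counting and filters are not given in the sources.

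Values were taken as log2(value + 1), a scale that understates the change of low transcripts. Captures were compared with totals in limma 3.58.1 (R 4.3.3), its variances moderated along a trend with level, in 1 fit of the 4 libraries of a line over all its transcripts (two-sided, Benjamini-Hochberg adjusted over all of them). The script was tested on simulated data. A limma fit of the 8 RNA-seq libraries gave SEs. Named members were the 2 with the highest mean heavy signal and, per capture, up to 2 highest and 2 lowest ratios among members at or above the members' median level whose groups did not overlap. Alternatives were other pseudocounts, a level filter, scalings, no trend, a replicate block, other limits of the rule and leaving out each library. The members, lists and tests were chosen with earlier results of these data known. Planned gene lists were not used, as 0 identifiers matched a name.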

Additional observations from a re-analysis of the deposited data

Results flagged for a closer look

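The members' median ratios went opposite ways in the RPS25 and RPL22 captures. Both RPS25 libraries gave a median ratio below 0 and both RPL22 libraries one above 0. The RPS25 median minus the RPL22 median was −0.22. Most single members did not go opposite ways: their RPS25 and RPL22 ratios had the same sign in 23 of 35 (Pearson r = 0.41). The sign was the same in 230 of 405 shifted transcripts (r = 0.10) and in 3620 of 7263 over the RNA-seq table (r = −0.06). The opposite signs of the medians were shared with the heavy side as a whole, whose RPS25 and RPL22 medians were −0.060 and 0.021. They were also shared with the shifted transcripts (−0.041 and 0.027). The difference was not tested, since the tables of the lines were normalised separately, and the RPL22 median turned negative, to −0.016, with library totals equalised. The same opposite directions were found for uc009cfj.2 in each captured library, with an RPS25 ratio minus RPL22 ratio of −0.30, also not tested.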

How the results depend on the processing

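The number of members, 35, depended on the limits of the rule: it was 86 and 6 with heavy minus light at or above 1.0 and 1.5, and 11 and 89 with a shift within 0.15 and 0.4. With library medians aligned it was 16 (11 shared with the 35), as that scaling moved the median shift of all transcripts from 0.09 to −0.022 and of the members to −0.28; with library totals it was 37 (21 shared). Without single libraries the members' median shift ran from −0.27 to −0.036, the ends being without the second and the first control heavy library. The calls over all transcripts in the RPS25 capture, 4, became 0 without a variance trend and 0 to 1 without single libraries (1 without the second total library, 0 without any other), which leaves fewer samples. Those in the RPL22 capture ranged from 0 to 1, with 1 without the second captured library. The members' RPL22 median was −0.016 with library totals, 0.10 with medians aligned and 0.010 to 0.057 without single libraries, and members lower without overlap became 13 with library totals. A replicate block called 692 transcripts and 1 member in the RPL22 capture and 6 transcripts and 0 members in the RPS25 capture. Replicate numbers are not linked to cultures or days in the labels and were not taken to pair libraries in the main fits. The replicate block and the results by replicate 1 or replicate 2 libraries alone did join same-numbered libraries. Another way of joining them was not tried and could give other counts. The same-numbered deviations correlated at 0.18 in the RPL22 line, 0.0077 in the RPS25 line and 0.40 to 0.62 between RNA-seq groups. For members named in a capture as highest or lowest, the ratio in that capture changed neither sign nor side of the threshold under the alternatives run. The member named after its values were seen, uc012fsr.1, passed the threshold in the RPL22 capture only with a replicate block. Ratios of these members in the other capture could change sign, as that of uc009snd.2 in the RPS25 line did (−0.19 and 0.32 by captured library). Unknown read depth limits what can be said of low transcripts.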

Other observations

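Footprint densities of the members in total libraries were alike between the lines that carry a FLAG tag: the log2 ratio of the RPS25 over the RPL10A line ran from −0.47 to 0.46. Between the RPL22 and RPS25 lines it ran from −0.96 to 1.06, with 33 of 35 members within a 2-fold difference. The member with the highest density, uc008jaw.2, stood at 1222 and 1508 RPKM in the RPL10A line, 1750 and 1566 RPKM in the RPS25 line, and 3389 and 3070 RPKM in the RPL22 line. The tables were normalised separately, so these levels are set side by side and were not tested.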
